A study of Mus musculus with 4 samples.

Results

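The 10 genes described here form a small part of BMP signalling in the mouse heart: the ligands Bmp4 and Bmp6, the receptors Acvrl1 (ALK1) and Bmpr2, the inhibitory Smads Smad6 and Smad7, and the target genes Id1, Id2, Id3 and Tmem100. They were found by symbol among the 28723 genes of the deposited table, and each matched 1 entry. They were chosen by FPKM and fold changes of this same comparison (Tmem100 higher and Id1 lower at 12 months), so their differences between ages are a description and carry no test. Heart RNA of untreated C57BL/6J mice with the genotype label WT was sequenced in 4 libraries. The young group was 8 weeks old (2 libraries) and the aged group 12 months old (2 libraries). Both ages are taken from a label field named batch. The titles of the aged libraries alone contain the word FLOX, which the genotype label does not explain. A difference between ages thus cannot be told apart from one of batch or of title series. Whether a library comes from 1 animal is not in the labels, so each error and p reflects the spread of these libraries, which may be technical.

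In BMP signalling, a dimeric ligand joins type I and type II receptors, and the type I receptor then phosphorylates Smad1, Smad5 or Smad9, which bind Smad4 and act on genes in the nucleus. ALK1 is a type I receptor found mostly on endothelial cells. It binds the circulating ligands BMP9 (Gdf2) and BMP10 together with Bmpr2 and the co-receptor endoglin, and is known for keeping vessels quiescent. Id genes are classical direct targets of this pathway, the inhibitory Smads are targets that feed back on it, and Tmem100, a small membrane protein of endothelial cells, is induced through ALK1.

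The targets differed in direction. Tmem100 averaged 7.01 ± 0.0235 FPKM at 8 weeks and 22.0 ± 0.168 FPKM at 12 months (mean ± SD, n = 2 libraries each; FPKM are read pairs scaled for transcript length and sequencing depth), a 3.01-fold higher level. Id1 averaged 72.4 ± 1.18 FPKM at 8 weeks and 38.2 ± 0.832 FPKM at 12 months, a 1.98-fold lower level. Id3, Acvrl1 and Bmp6 were also lower at 12 months, by 1.55-fold, 1.57-fold and 1.51-fold. The folds in this paragraph come from the edgeR fit of scaled counts described next, and are not ratios of the FPKM means. In an edgeR quasi-likelihood fit over 12027 genes with a mean of at least 1 FPKM, 1 member was past an adjusted p of 0.05 with a higher value at 12 months and 5 with a lower value. Of all tested genes, 20.1% were called higher and 17.5% lower (37.6% in all). Since this contrast chose the members, nothing is read from their count, or from which of them passed or did not pass. All 10 members were above 1 FPKM in every library, so none passed the minimum through 1 age alone. In bulk tissue, fewer cells of a type and less RNA per cell cannot be told apart.

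**Figure D1:**
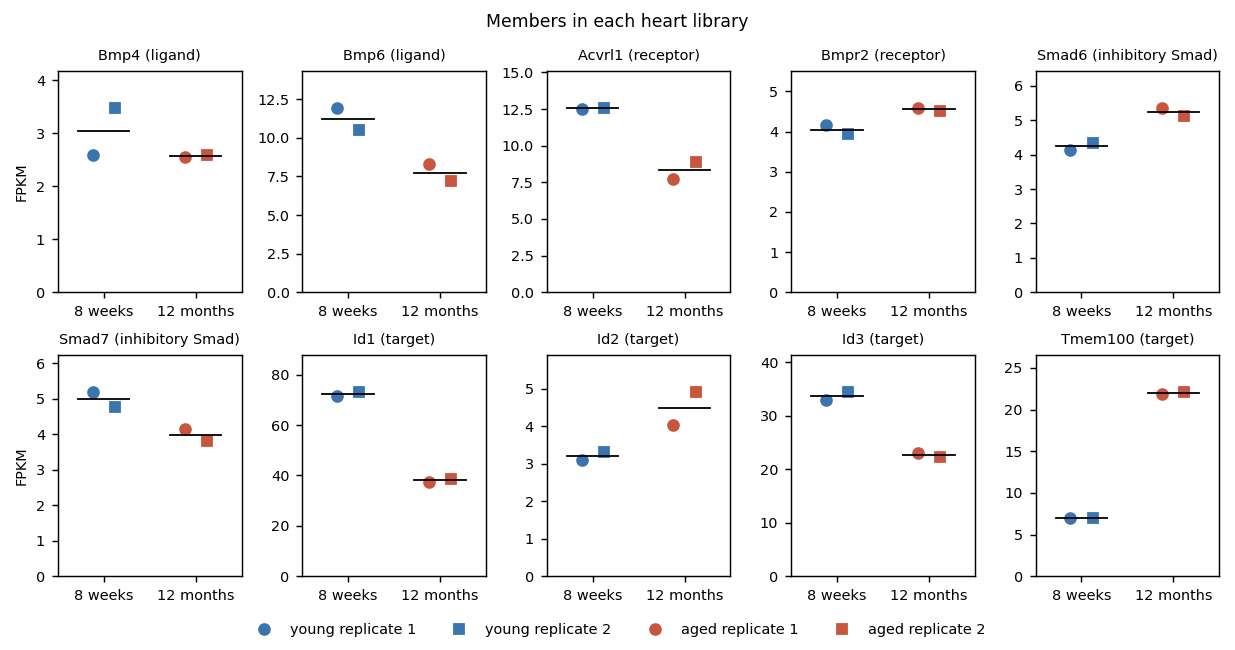
FPKM (vertical axes, each from 0) of the 10 members in each library, by age; circles and squares are replicates 1 and 2 and black lines are group means. The 2 ages did not overlap for 9 members, and for Bmp4 young replicate 1 (2.59 FPKM) lay inside the range of the aged libraries.

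The libraries held 51328364 to 63828074 estimated counts, and a count of 0 allows up to 0.047 to 0.0584 CPM (3 counts of the library, counting error only). Ventricular muscle markers fixed for the check of the tissue summed to 14381 to 15310 FPKM in all 4 libraries, and each of the 9 was detected. Single markers differed: 5 were called lower, among them Myl2 (mean 2375 and then 1258 FPKM), and 2 higher, among them Actc1 (4588 and then 5944 FPKM). The sum thus does not show that ventricular content was alike. Both aged libraries lay above both young ones, or below them, in 72.5% of all tested genes (41.4% above, 31.1% below), against 9 of the 10 members (4 above, 5 below).

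Among the ligands, Bmp6, which endothelial cells make and which in the liver sets the iron hormone hepcidin, was at 12.0 and 10.5 FPKM in young replicates 1 and 2 and at 8.31 and 7.19 FPKM in aged replicates 1 and 2. Both aged libraries were below both young ones, with a log2 fold change of -0.59 ± 0.12 (SE of the edgeR fit). Without young replicate 1 the log2 fold change of Bmp6 was -0.50. Bmp4, a ligand of heart and vessel development, was at 2.59 and 3.48 FPKM at 8 weeks, against 2.55 and 2.60 FPKM at 12 months. The 2 ages overlapped, and the log2 fold change of -0.29 ± 0.19 rested on young replicate 2: it was -0.07 without that library and -0.49 without young replicate 1. Bmp6 lies on chromosome 13 (38345107 to 38500302, plus strand, GRCm38) and shares 224 nt with Txndc5 on the opposite strand, so that some reads could be assigned to either if strand was not used in counting.

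Among the receptors, Acvrl1, the type I receptor ALK1 (chromosome 15, 101128522 to 101145336, plus strand), had 12.5 and 12.6 FPKM at 8 weeks. It had 7.75 and 8.91 FPKM at 12 months, both lower (log2 fold change -0.65 ± 0.08). Its type II partner Bmpr2, the receptor gene most often mutated in heritable pulmonary arterial hypertension, was at 4.17 and 3.93 FPKM at 8 weeks and at 4.60 and 4.52 FPKM at 12 months. The aged libraries were above the young ones by a small margin (log2 fold change 0.11 ± 0.07, not past the threshold). The level of Bmpr2 relative to Acvrl1, both per length, was 0.333 and 0.312 at 8 weeks and 0.593 and 0.507 at 12 months. The ratio of the 2 transcripts in bulk heart RNA was therefore higher in both aged libraries, by 1.71-fold, with Acvrl1 as the larger change. It does not give the balance of the partners within a cell.

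The inhibitory Smads differed in direction. Smad6, which blocks mainly BMP receptors and Smad1, was at 4.15 and 4.32 FPKM at 8 weeks, against 5.37 and 5.12 FPKM at 12 months, both higher (log2 fold change 0.25 ± 0.11, not past the threshold). Smad7, which blocks TGF-beta and BMP receptors, was at 5.20 and 4.77 FPKM at 8 weeks, against 4.16 and 3.80 FPKM at 12 months, both lower (log2 fold change -0.38 ± 0.11). Smad7 was thus the more abundant of the pair per length in young hearts (ratio to Smad6 1.25 and 1.10) and the less abundant in aged hearts (0.775 and 0.743). With 1 library left out, the log2 fold change of Smad7 ran from -0.48 to -0.30, and with the trend over GC content removed it was -0.27. Whether Smad7 passed the threshold depended on the alternative, and nothing is read from that. The log2 fold change of Smad6 ran from 0.18 to 0.30 with 1 library left out, and was 0.46 with that trend removed.

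Id proteins are helix-loop-helix factors without a DNA-binding part that hold E proteins away from DNA. Id1 (chromosome 2, 152736251 to 152737410, plus strand) was at 71.6 and 73.3 FPKM at 8 weeks, against 37.6 and 38.8 FPKM at 12 months. The aged libraries lay near the midpoint between 0 and the young level, with little spread in either age (log2 fold change -0.98 ± 0.07). Id3 (chromosome 4, 136143497 to 136145392, plus strand) was at 32.8 and 34.5 FPKM at 8 weeks, against 23.0 and 22.2 FPKM at 12 months (log2 fold change -0.63 ± 0.07). It moved the same way as Id1 but less, and the ratio of Id1 to Id3 was 2.18 and 2.12 at 8 weeks and 1.64 and 1.75 at 12 months. Id2 (chromosome 12, 25093799 to 25097140, minus strand) had the opposite sign, with 3.09 and 3.31 FPKM at 8 weeks and 4.03 and 4.93 FPKM at 12 months (log2 fold change 0.42 ± 0.14, not past the threshold). The 3 genes with Id4, the remaining family member, summed to 108 and 112 FPKM in the young libraries and to 65.3 and 66.7 FPKM in the aged. Id1 made up 66.1% and 65.5% of that sum at 8 weeks and 57.5% and 58.1% at 12 months, while Id2 made up 2.86% and 2.96% and then 6.17% and 7.39%. Transcripts of Id1 (1160 nt) and Id3 (1278 nt) were short, and with the trend over transcript length removed their log2 fold changes were -0.80 and -0.48.

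The start-site regions of Id2, Id3 and Smad6 are shown because Id2 and Id3 are targets of the same kind whose log2 fold changes had opposite signs (0.42 and -0.63), and Smad6 is a target with the sign of Id2 (0.25; Id2 and Smad6 were not past the threshold). Of the 10 members, 6 had a RefSeq promoter window searched (GRCm38.p6, 250 bases before to 50 after the start, 300 in all). Windows of Id1, Tmem100, Acvrl1 and Smad7 were not searched, so Smad6 is shown without Smad7 as a comparison. Capitals mark 3 motifs that Smad proteins are known to bind: GGCGCC, the GC-rich site of Smad1 and Smad5, the palindrome GTCTAGAC, and the core GTCT or its complement AGAC, which the palindrome contains. Both strands were searched.
Id2, chr12:25096043-25096342, minus strand: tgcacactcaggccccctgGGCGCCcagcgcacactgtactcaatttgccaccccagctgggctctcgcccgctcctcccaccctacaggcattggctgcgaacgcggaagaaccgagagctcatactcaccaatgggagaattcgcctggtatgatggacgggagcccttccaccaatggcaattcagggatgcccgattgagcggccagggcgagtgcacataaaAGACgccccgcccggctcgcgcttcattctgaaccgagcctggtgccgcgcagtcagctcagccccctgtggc
Id3, chr4:136143572-136143871, plus strand: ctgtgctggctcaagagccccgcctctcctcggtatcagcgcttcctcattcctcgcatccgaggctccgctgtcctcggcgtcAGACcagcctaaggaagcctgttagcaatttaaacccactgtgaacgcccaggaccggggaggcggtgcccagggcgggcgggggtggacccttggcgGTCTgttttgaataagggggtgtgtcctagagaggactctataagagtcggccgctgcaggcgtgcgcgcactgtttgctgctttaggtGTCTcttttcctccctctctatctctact
Smad6, chr9:64022010-64022309, minus strand: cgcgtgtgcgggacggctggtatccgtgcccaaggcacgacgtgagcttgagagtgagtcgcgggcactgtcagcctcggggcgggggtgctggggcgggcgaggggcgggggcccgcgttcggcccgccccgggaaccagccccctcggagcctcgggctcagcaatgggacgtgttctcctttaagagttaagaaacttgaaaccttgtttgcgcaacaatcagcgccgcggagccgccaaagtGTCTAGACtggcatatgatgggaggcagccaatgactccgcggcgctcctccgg
Id2 held GGCGCC once, with its first base at position -231 from the start, and the core once. Id3 held neither GGCGCC nor the palindrome in this window, and the core 3 times. Bases outside the window were not searched, and whether these motifs bear on the signs was not tested. Smad6 held the palindrome, with its first base at -4. GGCGCC was also in the Bmpr2 window, and the windows of Bmp4 and Bmp6 held 2 and 4 cores. Among 32851 promoters of this length, 11.9% held GGCGCC, 0.213% the palindrome and 88.0% the core, so the core sets no promoter apart.

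Tmem100 (chromosome 11, 90030348 to 90036508, plus strand) was at 7.03 and 7.00 FPKM at 8 weeks, against 21.9 and 22.2 FPKM at 12 months. The ages were separated by far more than either pair of libraries differed, and the log2 fold change was 1.59 ± 0.08. It was 1.56 to 1.60 when any 1 library was left out, and 1.52 with the GC trend removed. In the order of tested genes by FPKM, Tmem100 went from the 66.5th percentile at 8 weeks to the 88.6th at 12 months, next to Id3, which went from the 93.4th to the 89.0th. At 12 months Id3 (22.2 and 23.0 FPKM) and Tmem100 (21.9 and 22.2 FPKM) were therefore at about the same level. Tmem100 per Id1 was 0.0982 and 0.0955 at 8 weeks and 0.583 and 0.571 at 12 months, a 5.96-fold shift between targets of 1 pathway. The members were chosen with these opposite directions known, so a shift of this ratio was given by the choice. Tmem100 per Acvrl1 shifted by 4.76-fold.

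By the distance of their centred log2(FPKM + 1) values over the 4 libraries, the tested genes nearest to Tmem100 were Ubxn2a (distance 0.0947), Taco1 (0.118) and Lrrn4 (0.121), the last a mesothelial marker. Lrrn4 was near only on this scale, which compresses low values: it was at 0.072 FPKM in both young libraries and at 2.09 and 2.42 in the aged. Nearest to Id1 were Marcks (0.0212), Sncaip (0.0433) and Ptprb (0.0468), a receptor phosphatase of endothelial cells. Within a distance of 0.25 there were 17 genes around Tmem100 and 268 around Id1. With 4 libraries such likeness is a description of level changes.

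Id1, Id3 and Acvrl1 are strongly expressed in endothelium, and endothelial markers were lower in the same aged libraries. Of 20 endothelial markers 19 fell and 1, Vwf, rose, against 17.5% called lower and 20.1% called higher of all tested genes. All 20 had counts, and their summed FPKM was 577 to 586 in the young and 314 to 329 in the aged libraries. The geometric mean of 18 of them, without Vwf and the pathway gene Eng, fell by 0.92 on the log2 scale. Vwf went from 5.73 and 4.46 FPKM at 8 weeks to 8.19 and 7.44 FPKM at 12 months. Ratios to a reference that holds Vwf or Eng were not taken, and could differ. Single log2 fold changes among these 18 ran from -0.48 (Sox17) to -1.68 (Egfl7). Against the geometric mean of these 18 in the same library, Id1 overlapped between ages. Its log2 ratio was 1.71 and 1.76 at 8 weeks and 1.70 and 1.77 at 12 months. The other 9 members were higher on this ratio in both aged libraries than in both young ones, but so were 92.1% of all tested genes (1.45% were lower, and no member), since the reference itself fell, and nothing about the members is read from that count. Their differences ran from 0.33 for Acvrl1 and 0.35 for Id3 to 1.40 for Id2 and 2.57 for Tmem100. Acvrl1 and Id3 were thus lower per library but higher against the geometric mean. Against single markers the direction depends on the marker: Acvrl1 (-0.65), Id3 (-0.63) and Id1 (-0.98) each fell more than Sox17 and less than Egfl7. With Cdh5 alone as the reference, which was lower still at 12 months, 10 members and 95.4% of all tested genes were higher (0.673% lower), and with the median of the markers 9 members and 90.7% (1.4% lower).

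**Figure D2:**
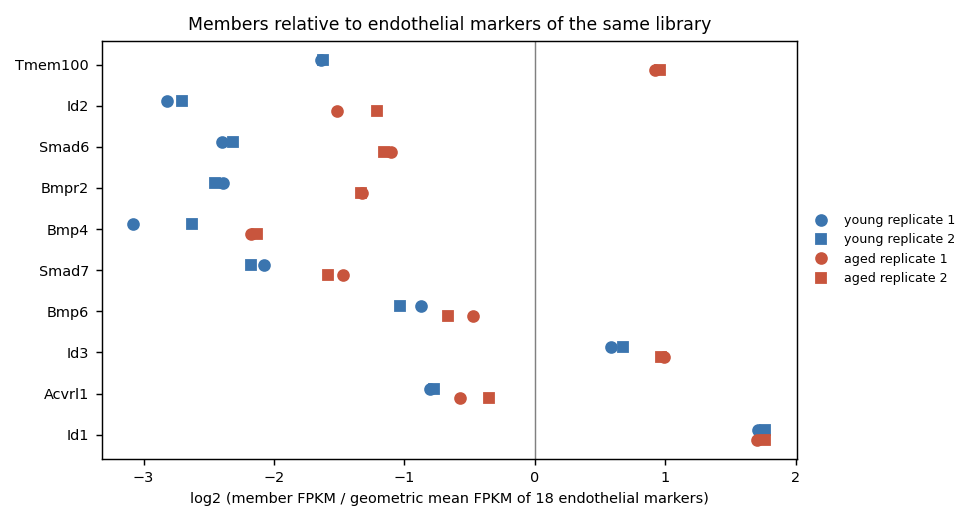
Log2 ratio of each member's FPKM to the geometric mean FPKM of 18 endothelial markers in the same library (horizontal axis), with members in order of the difference between ages; circles and squares are replicates 1 and 2. With this reference, which leaves out Vwf and Eng, the ratio of Id1 overlapped between ages at 1.70 to 1.77. That of Tmem100 went from about -1.63 to 0.94.

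Marker lists of other cell types differed in direction, and their part in the values of the members was not tested. Their calls stand beside 20.1% higher and 17.5% lower over all tested genes. The 9 tested markers of atrial muscle, of 10 listed, were called higher (1 of them, Bmp10, was tested only through its aged level), with a summed FPKM of 371 to 380 in the young libraries, 4708 in aged replicate 1 and 1920 in aged replicate 2. That sum was led by Nppa (3101 and 972 FPKM in the aged libraries) and Myl7 (927 and 484), while Clu (247 and 196) and Dkk3 (46.9 and 40.7) were closer between them. The 10 mesothelial markers had sums of 3.12 and 4.28 FPKM in the young libraries and 30.3 and 27.4 FPKM in the aged. The 12 fat-cell markers summed to 175 to 198 and 252 to 267 FPKM, although Fabp4, which endothelium also expresses, fell. All 6 mesothelial and 6 of the 7 fat-cell markers called higher had a young mean under the minimum and were tested only through their aged level, so these calls are not used. Endocardial markers (3 of 5 tested rose and none fell, at sums of 26.5 to 35.3 and 46.5 to 56.4 FPKM) and lymphatic markers (2 of 5 rose and 1 fell, 38.1 to 38.4 and 51.0 to 52.4 FPKM) are of vessel-lining cells too. Pericyte markers (6 of 8 fell) summed to 243 to 272 and 160 to 166 FPKM. Of the remaining lists, smooth muscle had 3 of 8 rise and 1 fall, fibroblasts 2 of 10 rise, macrophages 3 of 10 rise, ventricular muscle 2 of 9 rise and 5 fall, and Schwann and neuronal cells none of 5 called. None of the listed markers found in the table was without a count in all 4 libraries. The 6 lung epithelial markers in the table, checked because lung is rich in Tmem100, summed to 0.436 to 2.34 FPKM and none reached the minimum.

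**Figure D3:**
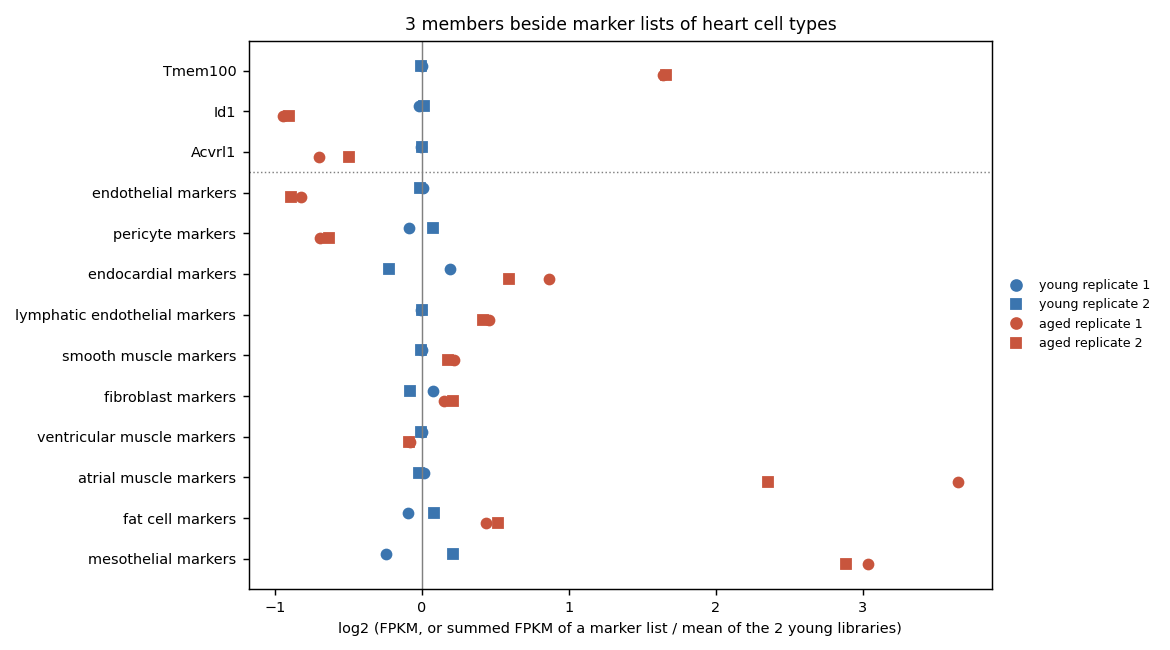
Log2 of FPKM (Tmem100, Id1, Acvrl1) or of summed FPKM (marker lists) relative to the mean of the 2 young libraries; circles and squares are replicates 1 and 2. Id1 and Acvrl1 lay to the left of the young libraries with endothelial and pericyte markers, and Tmem100 to the right, as did atrial (4708 and 1920 FPKM in the aged libraries) and mesothelial markers (30.3 and 27.4 FPKM).

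The rest of the BMP pathway was read from lists of 79 further genes, 77 of them in the table. Of these, 48 were tested, and 12 were called higher and 12 lower at an adjusted p below 0.05, with a median log2 fold change of -0.01 (0.01 over all tested genes). Of the 12 called higher, Bmp10 and Hamp had a young mean under the minimum and were tested only through their aged level. The background was 20.1% higher and 17.5% lower. Leaving out young replicate 1 or 2 left 7 or 5 higher and 7 or 9 lower, and leaving out aged replicate 2 gave 19 higher and 12 lower. The annotation in the deposited table gives lists of other authorship: of 50 tested genes of the KEGG TGF-beta pathway that are not members, 15 rose and 7 fell (median 0.18), and of 12 of Reactome's BMP signalling, 4 rose and 2 fell (median 0.21). Cells of the KEGG column for 6 genes were not used here.

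Induced targets of BMP or ALK1 other than the members were mostly lower. Of 10 tested, 6 fell, with a median of -0.63, where 17.5% of all tested genes were called lower. Efnb2, the arterial ephrin ligand, was at 6.18 and 7.10 FPKM at 8 weeks, against 3.05 and 3.04 FPKM at 12 months (log2 fold change -1.18 ± 0.10, adjusted p = 0.0012). Gata2, an endothelial and blood transcription factor, was at 5.34 and 5.43 and then 3.10 and 2.78 FPKM (-0.93 ± 0.10, adjusted p = 0.0019). These 2 genes fell about as much as Id1 and the endothelial markers. Gja4, the gap junction protein of arterial endothelium (-0.73 ± 0.13), Hey1 (-0.63 ± 0.10) and Hes1 (-0.81 ± 0.15), repressors that Notch also induces, and the Notch ligand Jag1 (-0.48 ± 0.11) fell too. Gja4, Hey1 and Jag1 lost their calls without young replicate 1. Hamp, the iron hormone hepcidin, had 10 and 3 counts at 8 weeks and 33 and 107 at 12 months (log2 fold change 3.47 ± 0.88), and its call is not used since it reached the minimum only through its aged level. Leaving out aged replicate 2 gave 2.36, aged replicate 1 gave 4.10, young replicate 2 gave 2.76 and young replicate 1 gave 4.73. Atoh8 (-0.02 ± 0.19), Msx1 (-0.62 ± 0.28) and Gja5 (0.74 ± 0.29) did not pass. Of the genes that ALK1 signalling is known to lower in endothelium, Apln (-0.08 ± 0.17) and Angpt2 (-0.07 ± 0.22) did not pass, and Esm1 was below the minimum. Endothelial markers fell in the same libraries (19 of 20), and their part in these values was not tested.

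**Figure D4:**
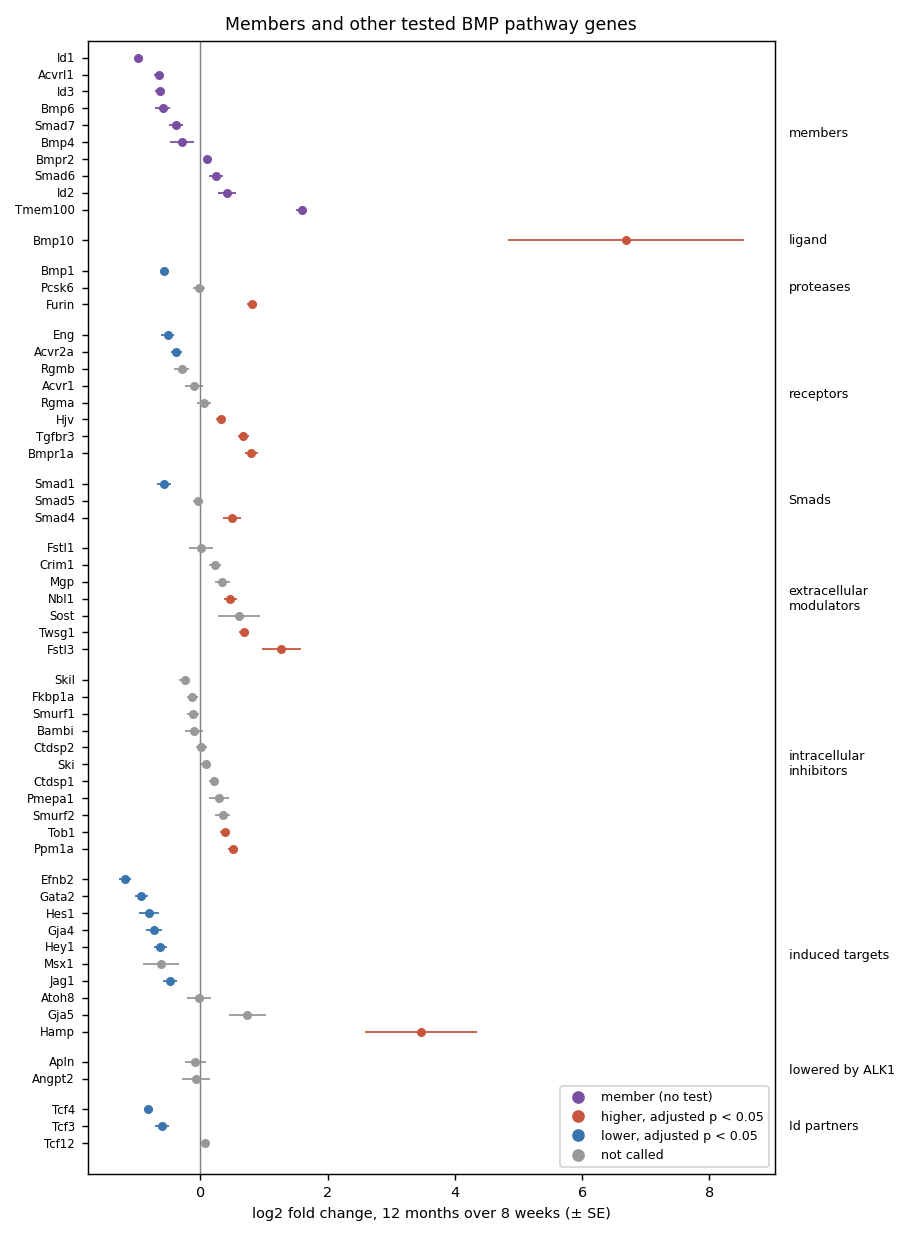
Log2 fold change, 12 months over 8 weeks, with its SE (bars) for the 10 members and the 48 other tested BMP pathway genes by role; red and blue mark genes called higher and lower, where Bmp10 and Hamp were tested only through their aged level. Induced targets lay mostly to the left and extracellular modulators mostly to the right, and Tmem100 (1.59) lay farther right than the other members.

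The receptors were mixed. Bmpr1a (ALK3), the main type I BMP receptor of heart muscle, was at 6.76 and 7.10 FPKM at 8 weeks, against 13.7 and 11.5 FPKM at 12 months (log2 fold change 0.80 ± 0.11, adjusted p = 0.0037). Its direction was opposite to that of Acvrl1, the type I receptor of endothelium, in both aged libraries. Tgfbr3, a co-receptor also called betaglycan, rose by 0.68 ± 0.09 and Hjv, the hemojuvelin co-receptor of muscle and liver, by 0.32 ± 0.07. Eng, endoglin, the co-receptor of ALK1, was at 80.3 and 83.0 FPKM and then 64.1 and 55.1 FPKM (-0.51 ± 0.10, adjusted p = 0.012). The type II receptor Acvr2a fell by 0.38 on the log2 scale (SE 0.09), and Acvr1 (-0.09 ± 0.14), Rgma (0.06 ± 0.11) and Rgmb (-0.30 ± 0.12) did not pass. Eng, Hjv and Acvr2a lost their calls without young replicate 1 and also without young replicate 2, and Acvr2a also without aged replicate 2. Of the signalling Smads, Smad1 fell (-0.57 ± 0.11), Smad5 did not pass (-0.03 ± 0.08), and the shared partner Smad4 rose (0.50 ± 0.15) with 12.8 and 9.72 FPKM in the aged libraries against 7.67 and 7.69 in the young. Smad1 lost its call without young replicate 2, and Smad4 without young replicate 1, young replicate 2 or aged replicate 1.

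Of the remaining ligands only Bmp10 reached the minimum. Bmp10, an ALK1 ligand made by atrial muscle and also 1 of the atrial markers, had 6 and 15 counts at 8 weeks and 46 and 1945 at 12 months (log2 fold change 6.68 ± 1.85). It reached the minimum only through aged replicate 2, so its call is not used, and the log2 fold change was 2.19 without that library. Gdf2 (BMP9), the other ALK1 ligand, which the liver makes, had no count in either young library and 25 and 27 in the aged, a level at least 18.9-fold higher when 3 counts over the young group are taken as its limit. It stayed under the minimum, as did 29 of the 77 pathway genes in the table. In the fit without a minimum, 4 of these 29 were higher and 2 lower. The higher ones were Gdf2, Gdf7, Fst (log2 fold change 1.55) and Bmp3, a ligand of bone (2.08). Gdf7, also on the ligand list, had the pattern of Gdf2, with no count in either young library and 27 in each aged one. The lower ones were Tll2, a tolloid-like protease (-3.01), and Kcp, a chordin-like modulator (-1.17). Furin, a convertase that cleaves BMP precursors, rose from 5.99 and 6.02 to 11.2 and 10.7 FPKM (0.81 ± 0.07, adjusted p = 0.00128), and Bmp1, a protease that cuts the antagonist chordin, fell by 0.57 on the log2 scale (SE 0.07).

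Of 7 tested extracellular modulators 3 rose and none fell, with a median of 0.47, while under the minimum Kcp was lower and Fst higher. Over all tested genes 20.1% were called higher and 17.5% lower, and nothing is read from counts of so few genes. Twsg1, which binds BMPs together with chordin, was at 11.9 and 12.0 FPKM at 8 weeks, against 20.1 and 19.7 FPKM at 12 months (0.68 ± 0.07, adjusted p = 0.00157). Fstl3, a follistatin-like trap of activin and related ligands (1.27 ± 0.31), and Nbl1, a DAN-family antagonist (0.47 ± 0.10), rose as well. Fstl3 was at 8.36 FPKM in aged replicate 1 and 4.41 in aged replicate 2 against 2.44 and 2.66 in the young libraries. Its log2 fold change was between 0.70 and 1.67 with 1 library left out, 0.70 without aged replicate 1. Fstl3 lost its call without either young library and Nbl1 without young replicate 2. Mgp, matrix Gla protein, a vascular BMP inhibitor at 77.1 to 118 FPKM in the 4 libraries, did not pass (0.34 ± 0.12). Of 11 intracellular and membrane inhibitors 2 rose, the phosphatase Ppm1a (0.51 ± 0.08) and Tob1 (0.38 ± 0.08), which lost its call without either young library. The ubiquitin ligases Smurf1 (-0.12 ± 0.10) and Smurf2 (0.35 ± 0.12), the corepressors Ski (0.08 ± 0.07) and Skil (-0.24 ± 0.09), and the decoy receptor Bambi (-0.10 ± 0.15) did not pass.

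E proteins, the helix-loop-helix factors that Id proteins bind, fell alongside Id1 and Id3 in 2 of 3 cases. Of all tested genes 17.5% were called lower. Tcf4 was at 4.28 and 4.34 FPKM at 8 weeks, against 2.57 and 2.51 FPKM at 12 months (-0.82 ± 0.07, adjusted p = 0.0012), and Tcf3 was at 8.18 and 8.72 and then 5.31 and 6.29 FPKM (-0.60 ± 0.10, adjusted p = 0.007). Tcf12, the third E protein, did not pass (0.08 ± 0.08).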

How the data were processed

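Poly(A) RNA from mouse hearts was read in pairs from strand-specific (dUTP) libraries, per the labels' protocols. Tools named in the submitters' processing notes are edgeR, DESeq2, StringTie 2.1.6, HISAT2 2.2.1 and cutadapt 1.9, with the build GRCm38; roles, settings and the strand option were not stated. Per the file headers, each gene has an FPKM value and an estimated count for every library in 1 deposited table. The expected counts deposited are whole numbers, taken as they are; 0 value columns had no sample.

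The 10 members, the pathway and marker lists, the tests and the alternatives were chosen with earlier results of these data known. Genes with a mean of at least 1 FPKM were tested with edgeR 4.0.16 (quasi-likelihood, TMM, 12 months minus 8 weeks, no covariate, R 4.3.3), with Benjamini-Hochberg adjustment over 12027 genes and a threshold of 0.05. The SE was taken as |log2 fold change| over the root of F. The fit was tested on simulated data. Alternatives were other minimums (0.1, 5, none), RLE or no scaling, DESeq2 1.42.0, limma 3.58.1 on log2(FPKM + 1) or log2(FPKM + 0.1), smooth length or GC trends removed (mgcv 1.9.3, 8 basis functions, longest GENCODE transcript), and each library left out. With 1 library in an age, its spread is taken from the other age.

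Named are the members, up to 4 called genes of each list and direction with the smallest p, called genes that moved against their list, and the 3 nearest genes to Tmem100 and Id1. Genes outside this rule, among them the fifth and further induced targets, Gdf2, Gdf7, Fst, Bmp3, Tll2, Kcp, Esm1, named atrial and ventricular markers and those said not to pass, were named after their values were seen, as were the KEGG and Reactome lists. Of the members, Bmp4, Bmp6 and Acvrl1 overlap another gene on the opposite strand and none on its own strand; of the 48 other tested pathway genes, 9 do so on their own strand and 12 on the opposite. Sequences came from RefSeq. Intervals and floors cover counting error only.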

Additional observations from a re-analysis of the deposited data

How the results depend on the processing

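All 10 members kept the sign of their log2 fold change under the 14 alternatives in which they were fitted (135 values). This contrast chose the members, so the counts of members that follow describe the processing and test no member. The members past the threshold numbered 3 higher in place of 1 with limma on log2(FPKM + 1) or log2(FPKM + 0.1), where Id2 and Smad6 were added, and 2 with the GC trend removed, where Smad6 was added; the cause was not tested. With 1 library left out, 1 member was higher and 3 to 5 were lower. The other pathway genes numbered 5 to 19 higher and 7 to 13 lower with 1 library left out, and 6 lower in place of 12 with a minimum of 5 FPKM, which tests fewer genes. Over all genes, 1187 to 2514 were higher and 890 to 2144 lower with 1 library left out, against 2416 and 2104, and 1469 were higher with a minimum of 5 FPKM. Of 651 values of pathway genes under the alternatives, 33 lost a call, 20 gained one and 1 turned: Fstl1 had a log2 fold change of 0.01 and of -0.36 without aged replicate 1, and of 0.29 without aged replicate 2, with a call in both. No paired analysis was possible because the replicate numbers were given in accession order and tie no young library to an aged one. With 2 libraries an age, small changes such as that of Bmpr2 may be missed.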
